A study of Homo sapiens with 6 samples.

Results

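A group of 4 miRNAs best known from tissues outside the liver, hsa-miR-486-5p, hsa-miR-126-3p, hsa-miR-143-3p and hsa-miR-1-3p, was followed in vesicles of a hepatoma cell line. They were chosen by name, as miRNAs of red cells, endothelium, smooth muscle and stroma, and striated muscle, with earlier results of these data known. They make up 4 of the 1007 miRNA names in the table. Of these names, 497 are known miRNAs and 510 are predicted sequences, and both kinds enter the shares and ranks given below. MHCC97H is an established human hepatoma line of high metastatic potential. Vesicles (exosomes) were pelleted from its culture medium, RNA of 18 to 30 nt was selected, and small RNA libraries were sequenced from 3 control samples and 3 samples of cells exposed for 24 h to 4 µmol/L xanthatin, a plant sesquiterpene lactone. DMSO, the solvent, stood at 0.5% in all experiments. The medium of every sample held 5% fetal bovine serum and 5% fetal bovine serum without exosomes. Neither the labels nor the table says whether replicates came from separate cultures, so p-values measure only the spread between these samples.

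A miRNA is a small RNA that guides Argonaute proteins to messenger RNAs, mainly by pairing of its seed, bases 2 to 8, and lowers their translation and stability. Some miRNAs are made almost only in one tissue, and for that reason they serve as markers of blood, vessels or muscle in body fluids. Serum carries such miRNAs in vesicles and protein complexes, and their mature sequences are strongly conserved among mammals. Counts by miRNA name therefore do not separate human from bovine molecules. A library of medium without cells was not analysed here, and whether reads of the 4 miRNAs came from the cells or from serum was not tested. In bulk libraries of this kind, fewer vesicles of one source and less of a miRNA per vesicle cannot be told apart. Levels are relative to the other miRNAs of a library, so a loss of one miRNA and a gain of others cannot be told apart either.

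The mature sequences below (RefSeq, GRCh38.p14) show how the miRNAs differ, with the seed in capitals; 3 of the 4 names matched the sequence table, and miR-206 is shown because it shares the seed of miR-1-3p.
miR-126-3p: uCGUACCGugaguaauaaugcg
miR-143-3p: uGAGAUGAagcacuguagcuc
miR-1-3p: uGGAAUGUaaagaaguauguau
miR-206: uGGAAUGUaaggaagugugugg

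The seeds of miR-126-3p, miR-143-3p and miR-1-3p all differ. Counted from the 5′ end of miR-1-3p, miR-206 differs by A11G, A17G, A21G and U22G, so 18 of 22 bases are identical and all differences lie outside the seed. No other name in the RefSeq table had the seed of miR-126-3p. The seed of miR-143-3p was shared by 2 other names, of which miR-6088 was in the count table, with 1, 0 and 1 counts in the control libraries and 0, 1 and 0 after xanthatin.

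In the GENCODE 29 annotation (GRCh38, the build of the submitters' processing notes) each precursor lies inside another gene. MIR126 is at chr9:136670602-136670686 on the plus strand, in an intron of EGFL7, a gene of endothelial cells. MIR143 is at chr5:149428918-149429023 on the plus strand, over an exon of the noncoding RNA gene CARMN. MIR145 follows it at chr5:149430646-149430733, in an intron of the same gene. miR-1-3p has 2 precursors, whose reads the counts do not separate. MIR1-1 is at chr20:62554306-62554376 on the plus strand, in an intron of MIR1-1HG. MIR1-2 is at chr18:21829004-21829088 on the minus strand, over an exon of MIR133A1HG and opposite an intron of the protein-coding gene MIB1. The precursors of miR-486, MIR486-1 and MIR486-2, lie on opposite strands of one stretch within an intron of ANK1, the gene of an erythrocyte membrane protein.

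The control libraries held 63965 to 80088 miRNA counts and the xanthatin libraries 204520 to 267956, 3.32 times as many in sum, so each miRNA is given as its count and as CPM, its count relative to a library total that was scaled by TMM, a method that equalises the bulk of the miRNAs. Of all 254 tested miRNAs, 30.3% were called by edgeR's quasi-likelihood test (adjusted p under 0.05), with 55.8% of the calls lower in xanthatin libraries (73.2% lower with library totals only, 49.5% with DESeq2 and 44.8% with no filter). The hepatocyte miRNA miR-122-5p was read 2848 to 4535 times in control and 218 to 236 times in xanthatin libraries. A count of 3 equals 34.7 to 39.9 CPM in a control library and 12.5 to 16.7 CPM in a xanthatin library. Counts do not show whether reads carried molecular identifiers, so such floors cover counting error only.

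All 4 miRNAs had lower scaled levels in every xanthatin library than in any control library. Across the tested miRNAs, 29.5% showed that separation in that direction. In the edgeR test 3 of the 4 were called lower, beside 16.9% of all tested miRNAs, and miR-126-3p was not called. The median log2 fold change of the 4 was -2.73, beside -0.16 over all 254 tested. The count filter asked for about 70.3 unscaled CPM in 3 libraries, which all 4 met in the 3 control libraries. Only miR-486-5p met it in all xanthatin libraries, against 2 for miR-143-3p and 1 each for miR-126-3p and miR-1-3p. Those 3 thus passed through their control levels, and the 4 were chosen with earlier results of these data known. For both reasons the counts and the median above are descriptions. Together the 4 took 1.11% ± 0.35 (SD, n = 3) of control counts and 0.0792% ± 0.011 of xanthatin counts.

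**Figure D1:**
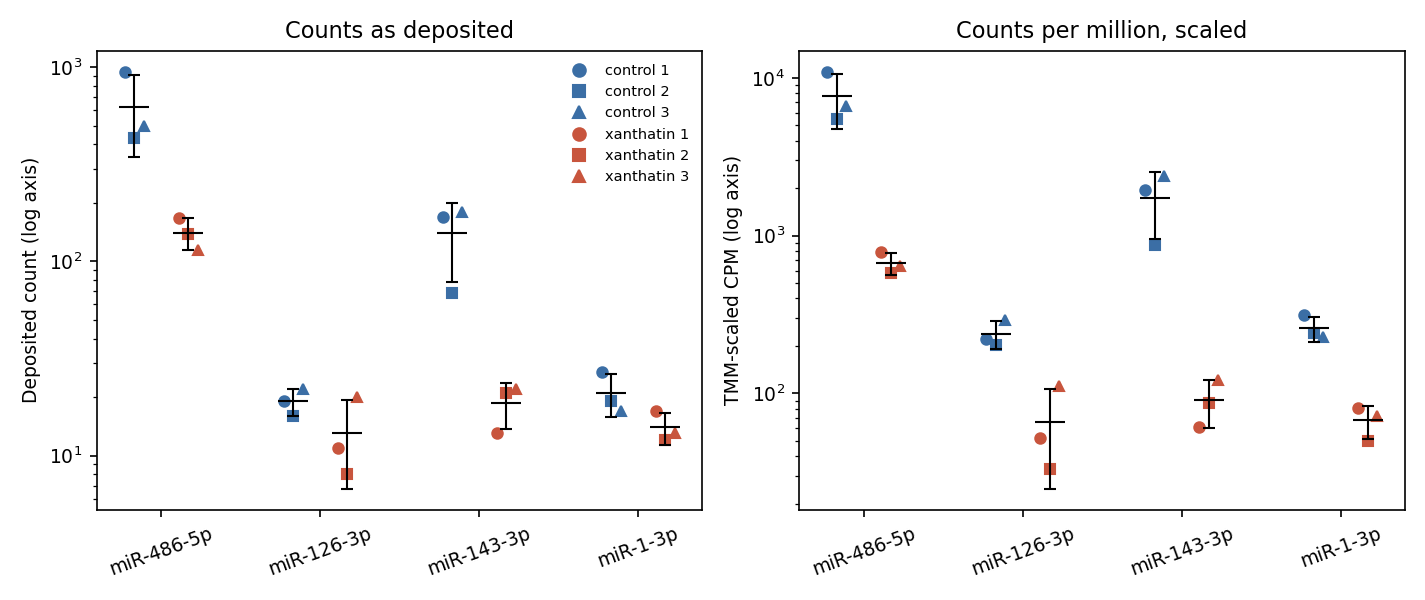
Left, counts of the 4 miRNAs in each library as deposited; right, TMM-scaled CPM, both on log axes, with points for libraries and black bars for the mean and SD of 3 libraries. In scaled CPM the groups stand apart for all 4, whereas the counts of miR-126-3p (16 to 22 against 8 to 20) and miR-1-3p (17 to 27 against 12 to 17) overlap or touch.

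hsa-miR-486-5p, a miRNA of red blood cells and of striated muscle, was the most abundant of the 4 in both groups. Its counts were 949, 432 and 497 in control replicates 1, 2 and 3 and 167, 139 and 115 in xanthatin replicates 1, 2 and 3. Every control library lay above every xanthatin library even before any correction for the greater depth of the latter. In scaled levels it fell from 7685 ± 2914 CPM (SD, n = 3) to 669 ± 110 CPM, 11.5-fold, or -3.52 on the log2 scale (SE 0.33), at an adjusted p = 8.54e-04. Among all names in a library it ranked 18th to 26th by count in control and 81st to 91st in xanthatin libraries. Of the 254 fold changes tested, its own was the 17th from the lowest. Control replicate 1 held about as many of its counts as the other control libraries combined, and without that library the log2 fold change was -3.21.

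The miRNA was read almost only from one arm of its hairpin. The opposite arm, miR-486-3p, had 0, 0 and 1 counts in the control libraries and 0, 1 and 0 after xanthatin. miR-451a, a dominant miRNA of red cells that matures through Argonaute2 without Dicer, had 1, 3 and 2 counts in the control libraries and 1, 9 and 0 after xanthatin. Its sum of 6 control counts stands beside 1878 for miR-486-5p, and its sum of 10 xanthatin counts beside 421. Of the 5 names on the red cell list, miR-144-3p and miR-144-5p were not among the names counted in these libraries. On that list miR-486-5p was the 1 tested and the 1 called lower. The summed level of the list was 5496 to 10995 CPM in control libraries against 619 to 795 CPM after xanthatin, nearly all of it miR-486-5p.

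hsa-miR-126-3p, which endothelial cells make in large amounts and which strengthens VEGF signalling by repressing SPRED1 and PIK3R2, was scarce. Its counts were 19, 16 and 22 in the control libraries and 11, 8 and 20 after xanthatin. As counts the groups overlapped, with xanthatin replicate 3 within the control range. After scaling they did not: the level was 220, 202 and 293 CPM in control libraries against 52.1, 33.3 and 111 CPM after xanthatin. The group means were 238 ± 48.0 and 65.5 ± 40.6 CPM (SD, n = 3), and the log2 fold change was -1.86 (SE 0.66) with an adjusted p of 0.0750 in the edgeR test. The difference did not pass in that fit. It did pass with library totals only, limma-voom and 3 limma-trend fits (adjusted p = 0.0273 to 0.0481), while the other alternatives gave adjusted p-values up to 0.391. The opposite arm, miR-126-5p, was not among the names counted, so the endothelial list rests on miR-126-3p alone.

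hsa-miR-143-3p, a miRNA of smooth muscle cells and fibroblasts that favours the contractile state, showed the largest fold change of the 4 in the edgeR fit. Its counts were 169, 69 and 180 in the control libraries and 13, 21 and 22 after xanthatin. The lowest control library, replicate 2, still held over 3 times the count of the highest xanthatin library. It fell from 1741 ± 784 CPM (SD, n = 3) to 90.3 ± 30.4 CPM, 19.1-fold, or -4.26 on the log2 scale (SE 0.54), at an adjusted p = 0.00272. It ranked 49th to 76th by count in control libraries and 218th to 299th in xanthatin libraries, and its fold change was the 11th from the lowest of 254. On the scale of log2(deposited TPM + 1), which shrinks differences of low values, it was -3.03, smaller than the -3.32 of miR-486-5p. On that scale miR-126-3p was at -0.96 and miR-1-3p at -1.01.

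Its cluster partner miR-145, which acts with it in smooth muscle, was read far less often. miR-145-5p had 5, 0 and 3 counts in the control libraries and 0 in every xanthatin library, where 3 counts over the group equal 4.75 CPM. miR-145-3p had 1 count in control replicate 1 and 0 elsewhere. Of 10 names on the list of smooth muscle and stroma, 6 rows were measured (miR-199a-3p and miR-199b-3p share a row), and only miR-143-3p had enough counts for the test. The summed level of the list was 897 to 2755 CPM in control libraries against 90.0 to 133 CPM after xanthatin.

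hsa-miR-1-3p, the miRNA that heart and skeletal muscle make in great amounts and that represses HAND2 in the heart, was scarce too. Its counts were 27, 19 and 17 in the control libraries and 17, 12 and 13 after xanthatin. The counts of the groups met at 17, and the xanthatin libraries reached these counts at 3.32 times the summed depth. Its scaled levels were 312, 240.1 and 226 CPM in control libraries against 80.5, 49.9 and 72.2 CPM after xanthatin. It fell from 260 ± 46.3 to 67.5 ± 15.8 CPM (SD, n = 3), which is -1.93 on the log2 scale (SE 0.53) at an adjusted p = 0.0372. That call was lost without any one of the 6 libraries (adjusted p = 0.0947 to 0.121). Nor did it hold under DESeq2, the replicate block, upper-quartile factors, a mean CPM filter of 10 or no filter (adjusted p = 0.0561 to 0.386).

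Most other miRNAs of striated muscle were close to absent. miR-133a-5p, from a hairpin that neighbours miR-1 at both of its loci, had 1 count in control replicate 1 and 0 elsewhere. miR-499a-5p, encoded in a myosin gene, had 0, 4 and 0 counts in the control libraries and 1, 1 and 0 after xanthatin. miR-206, the relative of miR-1-3p with the same seed, had 5, 2 and 3 counts in the control libraries and 21, 1 and 1 after xanthatin. Nearly all its xanthatin counts came from replicate 1, where they exceeded the 17 counts of miR-1-3p, and its groups overlapped. Of the 9 names on the muscle list 4 were measured, and only miR-1-3p had enough counts for the test, through its control libraries. Reads that match both miR-1-3p and miR-206 in part could have been counted for either one.

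**Figure D2:**
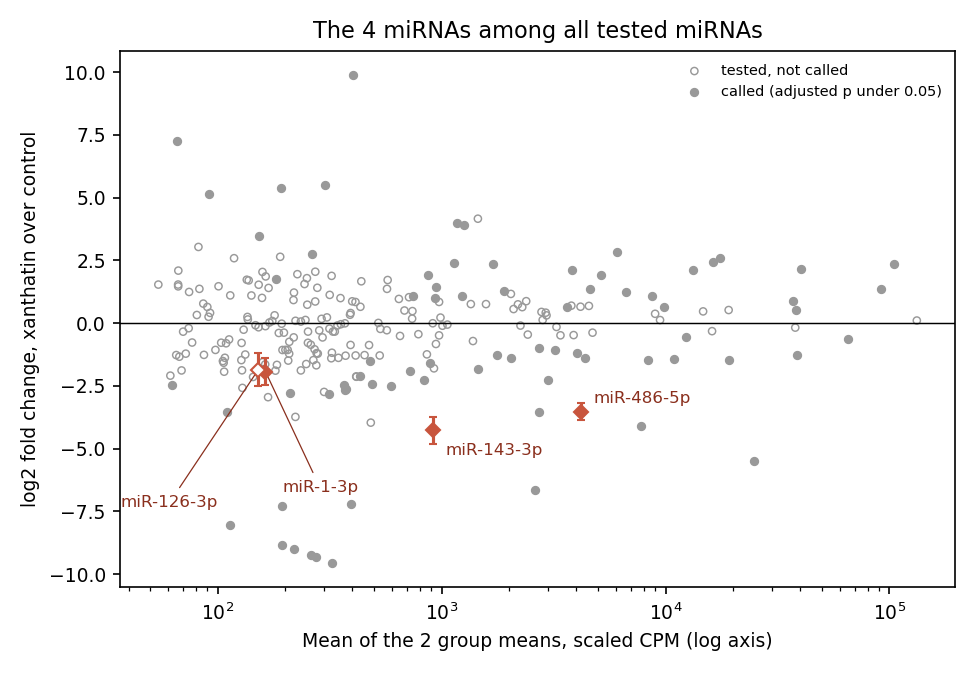
Log2 fold change (xanthatin over control) against the mean scaled CPM (log axis) of all 254 tested miRNAs, grey and filled where called; diamonds with SE bars are the 4 miRNAs, open for miR-126-3p, which was not called. miR-486-5p (-3.52) and miR-143-3p (-4.26) lie near the lower edge of miRNAs of similar level, and miR-126-3p (-1.86) and miR-1-3p (-1.93) among many others of low level.

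The mature forms are 21 to 22 nt long where their sequence was matched, so levels can be set side by side without a length term, although ligation favours some ends over others. In control libraries the order was miR-486-5p, miR-143-3p, miR-1-3p and miR-126-3p. The first pair of neighbours did not overlap (5458 to 10984 against 872 to 2395 CPM), nor did the next pair, whereas miR-1-3p (226 to 312 CPM) and miR-126-3p (202 to 293 CPM) overlapped. In xanthatin libraries miR-486-5p (578 to 791 CPM) stood above the rest. There, miR-143-3p (61.5 to 122 CPM), miR-1-3p (49.9 to 80.5 CPM) and miR-126-3p (33.3 to 111 CPM) overlapped one another. miR-486-5p held 77.2% ± 6.7 of the counts of the 4 in control and 75.1% ± 6.6 in xanthatin libraries (SD, n = 3).

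The ratio of one miRNA to another within a library needs no scaling, so ratios were used to describe the differences of the 4 side by side. Ratios were taken of counts plus 0.5 on the log2 scale, and the 6 pairs were compared by a two-sided exact permutation test, in which 3 libraries against 3 can give no p below 0.1. The test could therefore not pass for any pair, and unequal change was not shown by it. Ratios of miR-486-5p or miR-143-3p to miR-126-3p or miR-1-3p had groups that did not overlap and the smallest p, 0.1 (adjusted 0.15). This split of the 4 was made from the same values and is a description.

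The log2 ratio of miR-143-3p to miR-1-3p was 2.62, 1.83 and 3.37 in control libraries against -0.37, 0.78 and 0.74 after xanthatin, a difference of -2.23. That of miR-126-3p to miR-143-3p was -3.12, -2.07 and -3.00 in control libraries against -0.23, -1.34 and -0.13 after xanthatin, a difference of 2.16. miR-143-3p was thus well above both scarce miRNAs in control libraries and near their level in xanthatin libraries. The log2 ratio of miR-486-5p to miR-1-3p went from 4.80 ± 0.32 to 3.28 ± 0.19 (SD, n = 3), and that of miR-486-5p to miR-126-3p from 4.93 ± 0.60 to 3.47 ± 0.85, differences of -1.52 and -1.46.

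In the other 2 ratios the groups overlapped. The log2 ratio of miR-486-5p to miR-143-3p was 2.49, 2.64 and 1.46 in control libraries against 3.63, 2.70 and 2.36 after xanthatin (difference 0.70, exact permutation p = 0.4, adjusted 0.48). That of miR-126-3p to miR-1-3p was -0.50, -0.24 and 0.36 in control libraries against -0.61, -0.56 and 0.60 after xanthatin (difference -0.06, exact permutation p = 0.8). With counts of 8 to 27 behind it, the ratio of the scarce pair had an SD of 0.44 in control and 0.68 in xanthatin libraries, and equal change was not shown.

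**Figure D3:**
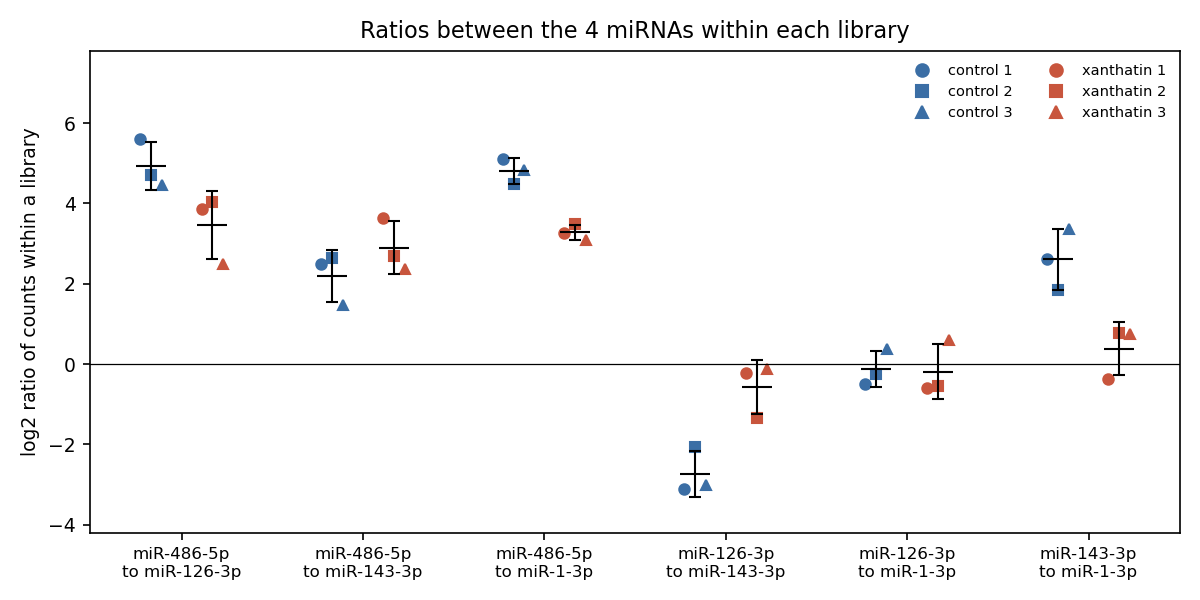
Log2 ratio of counts between each pair of the 4 miRNAs in each library, with points for libraries and black bars for the mean and SD of 3 libraries. The groups stand apart in the 4 ratios that set miR-486-5p or miR-143-3p against miR-126-3p or miR-1-3p, and overlap in the other 2.

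The known miRNAs whose levels over the 6 libraries were most like each of the 4 were found by the mean absolute difference of centred log2(CPM + 1) among 177 candidates. Each likeness includes the difference between the groups and is a description. Nearest to miR-486-5p were miR-193b-5p (mean difference 0.35), miR-365a-5p (0.42) and miR-143-3p (0.45). Nearest to miR-143-3p were miR-486-5p, miR-365a-5p (0.50) and miR-193b-5p (0.73). Thus miR-486-5p and miR-143-3p had each other among their 3 nearest, together with the same 2 further miRNAs. Nearest to miR-126-3p were miR-1275 (0.23), miR-483-3p (0.23) and miR-205-5p (0.28). Nearest to miR-1-3p were miR-10b-5p (0.23), miR-92a-1-5p (0.23) and miR-372-3p (0.28).

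The xanthatin libraries were deeper, and for all of these neighbours the counts differed less between the groups than the scaled levels did. Counts of 2 of them are given as examples. miR-372-3p, a miRNA of embryonic stem cells, had 2048, 2295 and 2397 counts in the control libraries and 2148, 1936 and 2198 after xanthatin, and a log2 fold change of -1.48 (SE 0.19). miR-10b-5p, of the HOXD locus, had 196, 203 and 147 counts in the control libraries and 129, 134 and 137 after xanthatin, and a log2 fold change of -1.81 (SE 0.25). In sum over the libraries, the xanthatin count was 0.667 of the control count for miR-1-3p and 0.684 for miR-126-3p. It was 0.224 of the control count for miR-486-5p and 0.134 for miR-143-3p. With the total implied by the deposited TPM in place of the scaled miRNA total, the log2 fold changes were -3.60 for miR-486-5p, -4.36 for miR-143-3p, -1.99 for miR-126-3p and -2.02 for miR-1-3p. Counts of miRNAs made up only 0.660% to 0.708% of that implied total in control libraries and 0.761% to 0.841% in xanthatin libraries.

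As a summed list, markers of the labelled cell type stood far above each list of blood, vessel or muscle, which does not hold for each marker alone. The hepatocyte list, with 5 of 6 names measured, summed to 99802 to 121724 CPM in control libraries against 30224 to 37106 CPM after xanthatin. Of its 4 tested members 2 were called lower (miR-122-5p and miR-148a-3p), miR-192-5p was called higher, and miR-194-5p was not called, beside 16.9% called lower and 13.4% called higher of all tested miRNAs. The list of white cells and platelets held 0 to 532 CPM in control libraries against 0 to 5.55 CPM after xanthatin, and 0 of its 4 measured rows had enough counts for the test. Outside the 4 miRNAs, the lists of red cells, white cells, stroma and muscle held between 0 and 69 counts each in any library. What part serum, or cells of these types, had in the levels of the 4 miRNAs was not tested.

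**Figure D4:**
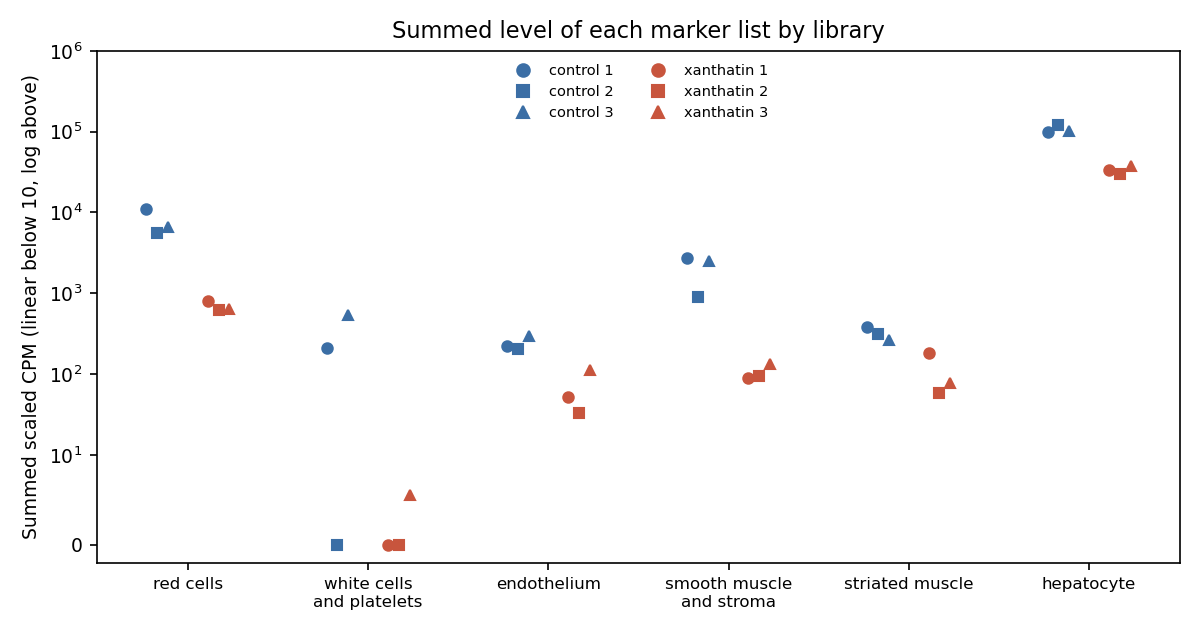
Summed scaled CPM of each marker list in each library, with an axis that is linear below 10 and logarithmic above. The red cell (5496 to 10995 against 619 to 795 CPM), endothelial, stromal and striated muscle lists each hold 1 of the 4 miRNAs. They largely repeat its values, although miR-206 had the highest count of the muscle list in xanthatin replicate 1. These lists are lower in every xanthatin library than in any control library, a separation shown by 29.5% of single tested miRNAs. The white cell list is at 0 in control replicate 2 and in xanthatin replicates 1 and 2.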

How the data were processed

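Small RNA libraries of 6 samples were analysed, 3 control and 3 xanthatin. The table deposited by the authors gives a whole-number count per miRNA name, not normalised, and a TPM value, per the file headers. The deposited TPM is the count times a factor that is the same for every name of a library, so length does not enter. The submitters' processing notes name the build hg38. For the aligner, counter and miRNA database, nothing is stated in the labels or header used here.

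The 4 miRNAs and the marker lists were chosen with earlier results of these data known. Named miRNAs were the 4, the other arms and cluster partners, list members with at least 3 counts, the 3 nearest profiles of each, and miR-122-5p; miR-6088, miR-486-3p, miR-145-3p and miR-133a-5p were named for their seed, arm or cluster.

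Counts of all 1007 names were fitted with edgeR 4.0.16 in R 4.3.3 (quasi-likelihood F test, TMM, default filter with minimum count 10, 254 miRNAs tested). p-values were adjusted by Benjamini-Hochberg over all tested, and called under 0.05. SE means the log2 fold change over the square root of F. The script was tested on simulated data. Of tested miRNAs given a 2-fold, 4-fold or 8-fold change, 8.99%, 24.0% and 38.3% were called, and 3.03% of calls were false. A miRNA that was not called may thus still have changed. Alternatives were RLE, upper-quartile and no scaling factors, the TPM total, no filter or a mean CPM of 10, DESeq2 1.42.0, limma 3.58.1 (voom; trend with pseudocounts 1 and 10, and on TPM plus 1), libraries thinned to 63965 counts, a replicate block, and leaving out each library. No replicates held identical counts (chi-square per degree of freedom 16.1 to 21.3).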

Additional observations from a re-analysis of the deposited data

How the results depend on the processing

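All 4 log2 fold changes stayed below 0 in the 13 alternative fits and the 6 fits without 1 library. miR-486-5p ranged from -3.85 to -3.21 and miR-143-3p from -4.61 to -3.03, and both were called in all 19. miR-1-3p lost its call with upper-quartile factors (-1.83, adjusted p = 0.0561), DESeq2 (-1.78, 0.0640), a filter of mean CPM 10 (-1.85, 0.205), no filter (-1.64, 0.386) and without any one library (-2.04 to -1.73). miR-126-3p was called with library totals only (-2.21, adjusted p = 0.0463), limma-voom (-2.10, 0.0318) and limma-trend on CPM plus 1 (-2.01, 0.0481), CPM plus 10 (-1.84, 0.0414) and TPM plus 1 (-0.96, 0.0273). Without 1 library it was at -2.41 to -1.51 (adjusted p = 0.0763 to 0.227), and in thinned libraries at -2.51 (0.0859). The causes were not tested.

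Between 2 and 4 of the 4 were called in the alternative fits, beside 6.65% to 35.8% of all miRNAs tested in them, and 2 without any one library, beside 16.2% to 25.2%. Over all miRNAs, calls higher numbered 34, but 22 with library totals only, 21 with the replicate block and 22 to 30 without 1 library, and 50 with DESeq2, 41 with limma-trend on CPM and 40 with RLE. Calls lower were 43, and 30 to 60 across alternatives. The median log2 fold change of all tested moved by 0.11 with RLE, -0.33 with totals only and -0.14 with the TPM total.

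Pairing of the samples by replicate number was not shown: deviations of same-numbered libraries correlated at 0.09, -0.08 and -0.14. Libraries of unlike number correlated at -0.18 to 0.25. So few libraries in a group cannot exclude a pairing. With the replicate block, miR-1-3p was at -1.94 (adjusted p = 0.105) and miR-126-3p was not called (0.121), while miR-486-5p and miR-143-3p were called.

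The difference in the ratio of miR-126-3p to miR-1-3p changed sign, at -0.46 to 0.18 without 1 library (0.18 without control replicate 3, 0.15 and 0.12 without xanthatin replicates 1 and 2). The other 5 ratios kept their direction. Depth limits the precision of miR-126-3p and miR-1-3p, with 8 to 27 counts in a library, and of miR-143-3p in xanthatin libraries, with 13 to 22.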

Other observations

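Scarce markers of blood, stroma and hepatocytes were read unevenly across the replicates of a group, and miR-214-3p, miR-150-5p and miR-885-5p were read in 1 library each. miR-214-3p, a miRNA of fibroblasts and mesenchyme, had 39 counts in control replicate 1 and 0 in the other 5 libraries. The row of miR-199a-3p and miR-199b-3p, made in mesenchymal cells, had 20, 2 and 1 counts in the control libraries against 3, 2 and 1 after xanthatin, and miR-199a-5p had 4, 0 and 7 against 3, 0 and 1. miR-155-5p, of activated white cells, had 18, 0 and 27 counts in the control libraries against 0 in each one after xanthatin, and miR-150-5p, of mature lymphocytes, had 11 counts in control replicate 3 only. miR-885-5p, a hepatocyte marker, had 15 counts in control replicate 1 and 0 elsewhere. None of these had enough counts for the test.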
